A study of Mus musculus with 18 samples.

Results

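The retina and the adjoining layer of retinal pigment epithelium (RPE) and choroid were compared in wild-type mice. The comparison rests on 6 of the 18 RNA-seq libraries of a study of Abca4, the retinoid flippase of photoreceptor outer segments, and all 6 were chosen by genotype and tissue alone: 3 from retina and 3 from RPE/choroid. The mice carried no Abca4 mutation, were of a mixed 129SV and C57BL/6 background and were 30 days old. Both tissues were dissected in the afternoon and stabilised at once, and total RNA was sequenced after removal of ribosomal RNA. RPE and choroid were collected as 1 layer, which holds epithelium, pigment cells, vessels and stroma. In such bulk samples, fewer cells of a type and less RNA per cell cannot be told apart.

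The neural retina converts light into nerve signals. Rods and cones detect light in their outer segments, bipolar cells relay the signal, horizontal and amacrine cells shape it, and ganglion cells send it to the brain. The RPE faces the outer segments: it re-isomerises retinoid for the visual pigments, engulfs shed outer segment tips, absorbs stray light with melanin and moves nutrients from the choroid, the vascular and pigmented layer behind it.

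Assigned fragments numbered 11553291 to 15758014 per library in retina and 17355989 to 30048060 per library in RPE/choroid. The libraries are named here by the number 0, 1 or 2 that the deposited tables give them. Within a tissue, log2 values of 2 libraries correlated with r from 0.9853 to 0.9977 across genes, and no pair was a copy. By Xist and Ddx3y, retinal library 2 came from a female and the other 5 libraries from males. The retinal libraries thus came from more than 1 animal, and sex is not balanced between the tissues. Nothing else says whether the 3 libraries of a tissue came from separate animals. Each p-value therefore reflects the variation among these libraries, which may be largely technical. RPE/choroid library 2 stood apart before any comparison: the deposited FPKM of 20 rod genes summed to 3231 in it, to 281 and 381 in the other wild-type RPE/choroid libraries, and to between 392 and 776 in the 6 RPE/choroid libraries of the mutant genotypes. Medians of the retinal neuron lists are given with and without it. Differences of single genes include it unless stated, and for rod genes it lowers them: their median was log2 4.74 with it and 7.27 without.

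The levels below are joint FPKM, that is, fragments per kilobase of transcript relative to library size, after 1 scaling (TMM) over all 6 libraries, so that genes and tissues share a scale. Differences are fitted log2 ratios of retina over RPE/choroid from edgeR's quasi-likelihood test, and a gene is called at a Benjamini-Hochberg adjusted p under 0.05. Of 15627 genes tested, 13126 were called (84.0%), 6431 higher in retina (41.2%) and 6695 higher in RPE/choroid (42.8%). With so high a background, a call by itself says little of a gene list, and size is the better guide. Differences of at least 2-fold were called for 3369 genes higher in retina (21.6%) and 4600 higher in RPE/choroid (29.4%). Without RPE/choroid library 2, 85.1% of 15781 genes were called, 22.7% at least 2-fold higher in retina and 30.1% at least 2-fold higher in RPE/choroid. The median difference over all tested genes was log2 -0.027. A shared base of expression remained: 4731 genes had at least 10 FPKM in every library, and 3739 of these differed by under 2-fold.

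Genes were termed restricted when they were called, differed at least 16-fold (log2 of 4) and had a deposited FPKM of at least 1 in every library of the higher tissue. By this rule 566 genes were retina-restricted (3.62%) and 1454 RPE/choroid-restricted (9.30%). The retina-restricted genes took 11.4% to 11.8% of all retinal fragments, and 0.09%, 0.117% and 1.136% of the fragments in RPE/choroid libraries 0, 1 and 2. The RPE/choroid-restricted genes took 18.2% to 21.0% of RPE/choroid fragments and 0.253% to 0.277% of retinal fragments. Without RPE/choroid library 2 the retinal set grew to 782 genes (4.96%), which hold all 566, while the RPE/choroid set had 1532 (9.71%), 1446 of them shared. In the plot of all tested genes, the retinal set forms a narrow band where the RPE/choroid set fans out. Fitted differences of at least log2 8 were reached by 1 retina-restricted gene against 355 RPE/choroid-restricted genes, and by 109 genes of the retinal set without library 2.

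**Figure D1:**
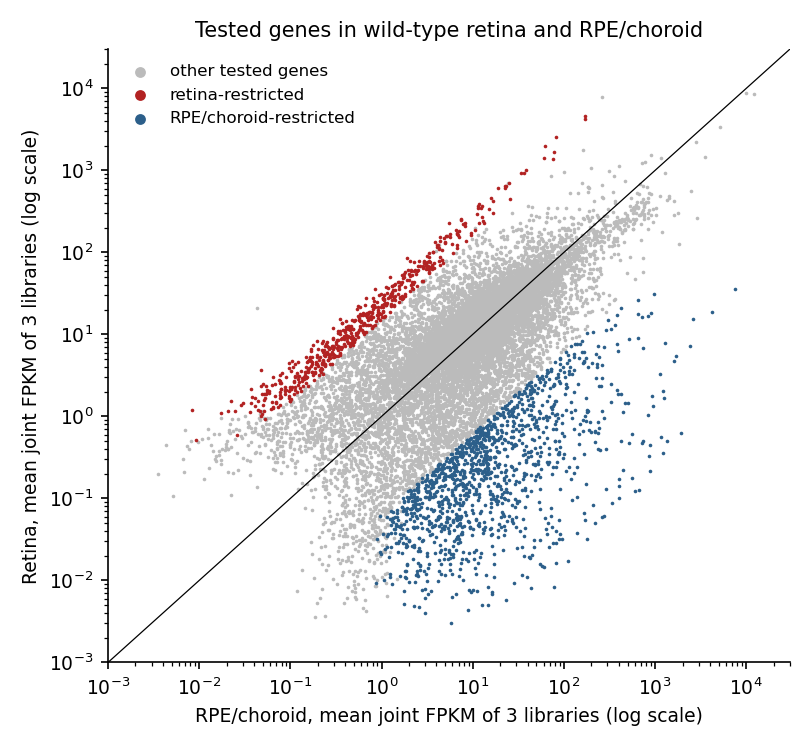
Mean joint FPKM of the 3 wild-type retinal libraries (vertical, log scale) against the 3 wild-type RPE/choroid libraries (horizontal, log scale), 1 point per tested gene; 239 genes with a mean of 0 in a tissue are not drawn. The line marks equal levels, red points are the 566 retina-restricted and blue points the 1454 RPE/choroid-restricted genes. The red points form a narrower band than the blue ones.

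Rod phototransduction genes were among the most abundant retinal messages. Arrestin (Sag), which ends the light signal of rods, stood at 4716, 4408 and 4528 joint FPKM in the retinal libraries and at 16.9, 31.2 and 465 in RPE/choroid libraries 0, 1 and 2. The groups did not overlap, yet the RPE/choroid value spread over more than an order of magnitude, and library 2 alone made that spread. The fitted difference was log2 4.74 (SE 1.60, edgeR adjusted p = 0.0428), and 7.54 without library 2. Transducin alpha (Gnat1) stood at 3966, 3836 and 4769.8 FPKM in retina and at 18.6, 35.1 and 457 in RPE/choroid. Its difference was log2 4.62 (SE 1.53, edgeR adjusted p = 0.0408), and 7.27 without library 2. Phosducin (Pdc), a binder of transducin beta-gamma, had a difference of log2 4.94, and the inhibitory phosphodiesterase subunit Pde6g one of 4.44. Without library 2 they were 7.62 and 7.14. Of the 19 rod genes tested, 18 were called higher in retina and 14 were restricted, with a median of log2 4.74 that became 7.27 without library 2. Leaving out any library other than RPE/choroid library 2 left 7 to 10 of the 19 called. The remaining listed rod gene, Cngb1, fell under the count filter.

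**Figure D2:**
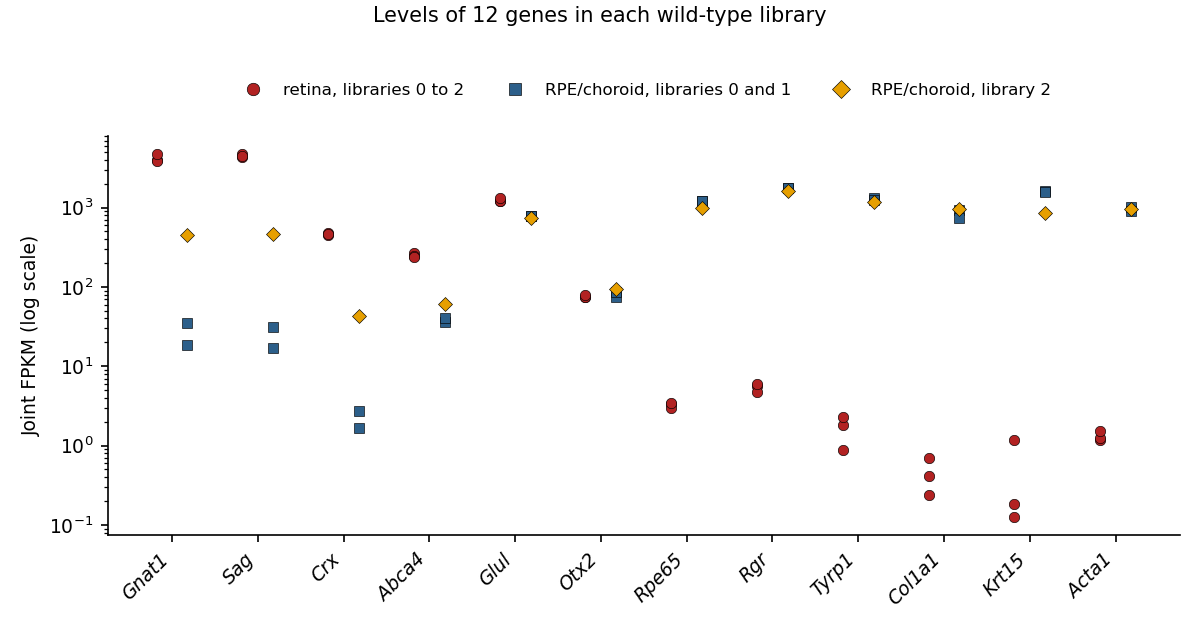
Joint FPKM (log scale) of 12 genes in each of the 6 wild-type libraries, 1 point per library: retina in red circles, RPE/choroid libraries 0 and 1 in blue squares and library 2 in orange diamonds. For Gnat1, Sag and Crx library 2 lies above the other RPE/choroid libraries (457, 465 and 43.6 FPKM), for Rpe65, Tyrp1 and Acta1 the 3 libraries lie together, and Otx2 overlaps between the tissues.

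Cone genes gave the same picture at lower levels. Cone arrestin (Arr3) stood at 119.6, 133 and 122 FPKM in retina and at 0.326, 0.405 and 11.7 in RPE/choroid (log2 4.97, SE 1.46, edgeR adjusted p = 0.0280; 8.35 without library 2). The middle-wavelength opsin Opn1mw differed by log2 5.60 (SE 1.31, edgeR adjusted p = 0.0128), the largest value of the cone list, and by 9.01 without library 2. The short-wavelength opsin Opn1sw, at 186 to 211 FPKM in retina and 0.782, 1.06 and 30.2 in RPE/choroid, was not called (log2 4.22, SE 1.70, edgeR adjusted p = 0.0715), and without library 2 it was (7.70). Of 11 cone genes, 10 were called higher in retina, 8 were restricted and the median was log2 4.44, or 6.23 without library 2. Without any other library 7 or 8 were called.

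Genes of outer segment structure and retinoid handling were all called higher in retina, 22 of 22, with 17 restricted and a median of log2 4.61 (7.27 without library 2; 10 called without any other library). Peripherin 2 (Prph2), which shapes the disc rim, had 1964, 1948 and 2004 FPKM in retina and 5.48, 8.15 and 174 in RPE/choroid. Its partner Rom1 differed less, by log2 4.17 (SE 0.885, edgeR adjusted p = 0.00918), with 29.1 and 34.9 FPKM in RPE/choroid libraries 0 and 1. Abca4 itself was not restricted: it stood at 271, 245 and 235 FPKM in retina and at 36.0, 40.6 and 61.3 in RPE/choroid, a difference of log2 2.44 (SE 0.212, edgeR adjusted p = 4.96e-05) and of 2.70 without library 2. Abca4 belongs to a group of photoreceptor genes that kept a larger share of their retinal level in RPE/choroid than the median rod gene (0.477% and 0.788% in libraries 0 and 1). In these libraries Abca4 held 14.4% and 16.2% of its retinal level, the cadherin Cdhr1 21.8% and 22.3%, and the disc protein Prom1 16.9% and 18.6%. Of 52 photoreceptor genes, 8 were above 5% of the retinal level in both of these libraries, the others being Gucy2f, Rgs9, Slc24a1, Gngt2 and Gnb1.

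Most transcription factors of the retina were higher there as well. Crx, the homeodomain factor of both photoreceptor types, had 475, 454 and 469.6 FPKM in retina and 1.66, 2.75 and 43.6 in RPE/choroid (log2 4.87, SE 1.59, edgeR adjusted p = 0.0387; 7.68 without library 2). Nrl and Nr2e3, which set rod over cone identity, differed by log2 4.64 and 4.83. Isl1 of bipolar, amacrine and ganglion cells and Neurod1 differed by log2 4.81 and 4.92, and by 8.26 and 8.22 without library 2. Factors of the early eye field ranged widely. Six6, Rax and Six3 were called higher in retina, by log2 3.12, 2.06 and 1.12. Pax6 stood at 83.1, 86.1 and 97.9 FPKM in retina and at 71.3, 82.8 and 74.4 in RPE/choroid (log2 0.23, SE 0.0907, edgeR adjusted p = 0.0495, and 0.0578 without library 2). Lhx2 was higher in RPE/choroid by 0.53 on the log2 scale (log2 -0.53, SE 0.114, edgeR adjusted p = 0.00318), and so was Mef2c, a factor not of the eye field (log2 -0.44). In all, 16 of 18 factors were called higher in retina and 8 were restricted (median log2 3.50, 4.16 without library 2, when 15 were called higher in retina, and 10 to 12 without any other library).

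CRX binds a short homeodomain motif, and its core, TAATCC on either strand, was searched from 250 bases before to 50 after the RefSeq start site (build GRCm38.p6). Among rod genes, 7 of 13 windows held it (53.85%), against 716 of 12151 windows of tested genes (5.89%), 41 of 404 windows of retina-restricted genes (10.15%) and 85 of 1042 of RPE/choroid-restricted genes (8.16%). Cone genes held it in 1 of 7 windows, outer segment genes in 3 of 18, visual cycle genes in 2 of 8 and pigment genes in 2 of 11. Because 13 of the 20 listed rod genes and under 80% of all tested genes matched a window, the comparison of shares is void, and the counts describe these windows only. A match is a run of letters and not a known site. The 150 bases before the start of 3 rod genes that hold the core and of Crx itself are shown, since these genes carry the retinal end of the comparison. They run 5′ to 3′ on the gene's strand and end at the base before the start, with the core in capitals.
Crx, chr7:15879956-15880105, minus strand: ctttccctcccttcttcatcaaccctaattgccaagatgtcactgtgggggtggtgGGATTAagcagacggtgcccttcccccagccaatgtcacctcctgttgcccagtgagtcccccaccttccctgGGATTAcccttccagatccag
Sag, chr1:87803530-87803679, plus strand: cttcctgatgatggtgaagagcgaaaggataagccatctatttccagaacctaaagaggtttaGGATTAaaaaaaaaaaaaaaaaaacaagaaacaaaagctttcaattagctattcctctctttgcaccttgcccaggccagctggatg
Guca1a, chr17:47400607-47400756, minus strand: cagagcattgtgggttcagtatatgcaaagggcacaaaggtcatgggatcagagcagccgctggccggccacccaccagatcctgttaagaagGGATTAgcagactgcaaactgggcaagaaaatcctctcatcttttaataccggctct
Gucy2e, chr11:69237023-69237172, minus strand: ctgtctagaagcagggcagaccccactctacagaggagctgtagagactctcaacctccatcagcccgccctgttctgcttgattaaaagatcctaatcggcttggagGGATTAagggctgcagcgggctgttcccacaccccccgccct

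In these windows the core began 94 and 21 bases before the Crx start, 87 before that of Sag, 57 before that of Guca1a and 42 before that of Gucy2e. Guca1a, a calcium sensor of guanylate cyclase, stood at 568, 608 and 634 FPKM in retina and at 3.11, 4.45 and 48.8 in RPE/choroid. Its difference was log2 5.02 (SE 1.35, edgeR adjusted p = 0.0212), and 7.27 without RPE/choroid library 2. Gucy2e, the cyclase itself, had 64.8, 60.2 and 65.3 FPKM in retina and 1.38, 1.72 and 7.74 in RPE/choroid (log2 4.14, SE 0.858, edgeR adjusted p = 0.00843).

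Synaptic and inner retinal genes formed the next tier. Of 18 ribbon synapse genes, 17 were called higher in retina and 12 were restricted (median log2 4.54, 6.63 without library 2; 9 to 12 called without any other library). The vesicular glutamate transporter Slc17a7 of photoreceptors and bipolar cells had 403, 398 and 472 FPKM in retina and 1.70, 2.80 and 45.3 in RPE/choroid. Snap25, of the vesicle fusion machinery, was not called (675, 706 and 710.3 against 1.44, 2.55 and 69.2 FPKM; log2 4.84, SE 1.83, edgeR adjusted p = 0.0598), and without library 2 it was (8.39). Of 14 bipolar genes 13 were called higher in retina and 9 were restricted (median log2 4.44, 5.75 without library 2; 10 or 11 called without any other library). The calcium binders Scgn and Cabp5 were nearly confined to retina apart from library 2: Scgn had 58.6, 54.9 and 60.3 FPKM in retina and 0.0393, 0.0488 and 5.37 in RPE/choroid. The bipolar gene that went the other way, Trpm1, is described with the transcripts. Of 14 amacrine and horizontal cell genes 12 were called higher in retina and 8 were restricted (median log2 4.84; without library 2 all 14, with a median of 8.28 and of 7.33 when genes at 0 are set to their bound; 9 or 10 called without any other library). Slc32a1, which loads inhibitory transmitter into vesicles, had no fragment in RPE/choroid libraries 0 and 1 and 1.06 FPKM in library 2, against 14.4 to 16.6 in retina. The GABA enzyme Gad1 was among the 2 not called (edgeR adjusted p = 0.0581).

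Ganglion cell genes separated less cleanly. The light neurofilament Nefl, abundant in their axons, had 233, 251 and 254 FPKM in retina and 2.30, 2.37 and 17.6 in RPE/choroid. The difference was log2 5.06 (SE 1.09, edgeR adjusted p = 0.00959), and 6.70 without library 2. Thy1 differed by log2 1.89 (SE 0.0885, edgeR adjusted p = 1.10e-06), with 16.89 to 20.01 FPKM in the RPE/choroid libraries. Rbpms, an RNA binder used as a ganglion cell marker, was higher in RPE/choroid (12.7, 13.0 and 13.9 against 16.5, 17.6 and 17.4 FPKM; log2 -0.38, SE 0.0700, edgeR adjusted p = 0.00141), where pericytes, smooth muscle and other cells can also express it. Melanopsin (Opn4) overlapped between the groups at 1.43 to 2.00 and 1.29 to 2.34 FPKM (log2 -0.14, SE 0.257, edgeR adjusted p = 0.629). In total 11 of 13 were called higher in retina and 5 were restricted (median log2 3.72, 4.41 without library 2).

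Müller glia and astrocyte genes split evenly, 7 of 14 called higher in each tissue (median log2 0.091). Over all tested genes the shares were 41.2% in retina and 42.8% in RPE/choroid (median log2 -0.027), so the split does not set this list apart. Glutamine synthetase (Glul), which clears glutamate in Müller cells, stood at 1213, 1206 and 1329 FPKM in retina and still at 779, 785 and 750.5 in RPE/choroid. The glutamate transporter Slc1a3 differed by log2 3.09 (SE 0.357, edgeR adjusted p = 0.000499) and the intermediate filament Gfap by 4.16 (SE 0.689, edgeR adjusted p = 0.00330). On the other side, apolipoprotein E (Apoe) had 299, 288 and 317 FPKM in retina and 1708, 1858 and 1787 in RPE/choroid (log2 -2.57, SE 0.0750, edgeR adjusted p = 1.33e-07), and clusterin (Clu) differed by log2 -2.02. The retinoid carrier Rlbp1, made by Müller glia and RPE alike, was 1.90-fold higher in RPE/choroid (236, 229.6 and 251 against 418, 498 and 444 FPKM).

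RPE/choroid library 2 held a similar share of most retinal neuron lists. The median rod gene stood at 0.477%, 0.788% and 9.99% of its retinal level in RPE/choroid libraries 0, 1 and 2. Medians in library 2 were 11.5% for cone genes, 10.9% for outer segment genes, 11.4% for the ribbon synapse, 10.5% for bipolar genes, 10.2% for amacrine and horizontal cells and 12.3% for ganglion cells. The transcription factor list was higher, at 5.27%, 5.81% and 15.9% in libraries 0, 1 and 2. For the lists other than transcription factors and Müller glia, the medians in libraries 0 and 1 ran from 0.171% (amacrine and horizontal cells, library 0) to 5.45% (ganglion cells, library 0). Over the 782 genes restricted to retina without library 2, the median level was 1.39% and 1.70% in libraries 0 and 1 and 11.1% in library 2, where 758 genes lay between 5% and 20%. Of these genes, 775 were higher in library 2 than in both other RPE/choroid libraries. The 782 were chosen from a fit that does not hold library 2, but the retinal libraries are shared, so these are descriptions. The medians of the Müller glia and astrocyte list were alike in the 3 libraries (62.4%, 65.0% and 60.1%), but its members differed. Slc1a3 stood at 8.05%, 9.16% and 18.1% of its retinal level, Kcnj10 at 2.49%, 3.34% and 9.31% and Gfap at 1.38%, 4.15% and 11.7%. Glul, at 62.4%, 62.8% and 60.1%, and Aqp4, at 54.4%, 65.0% and 52.5%, were not highest in library 2. What puts retinal messages in library 2 was not tested.

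**Figure D3:**
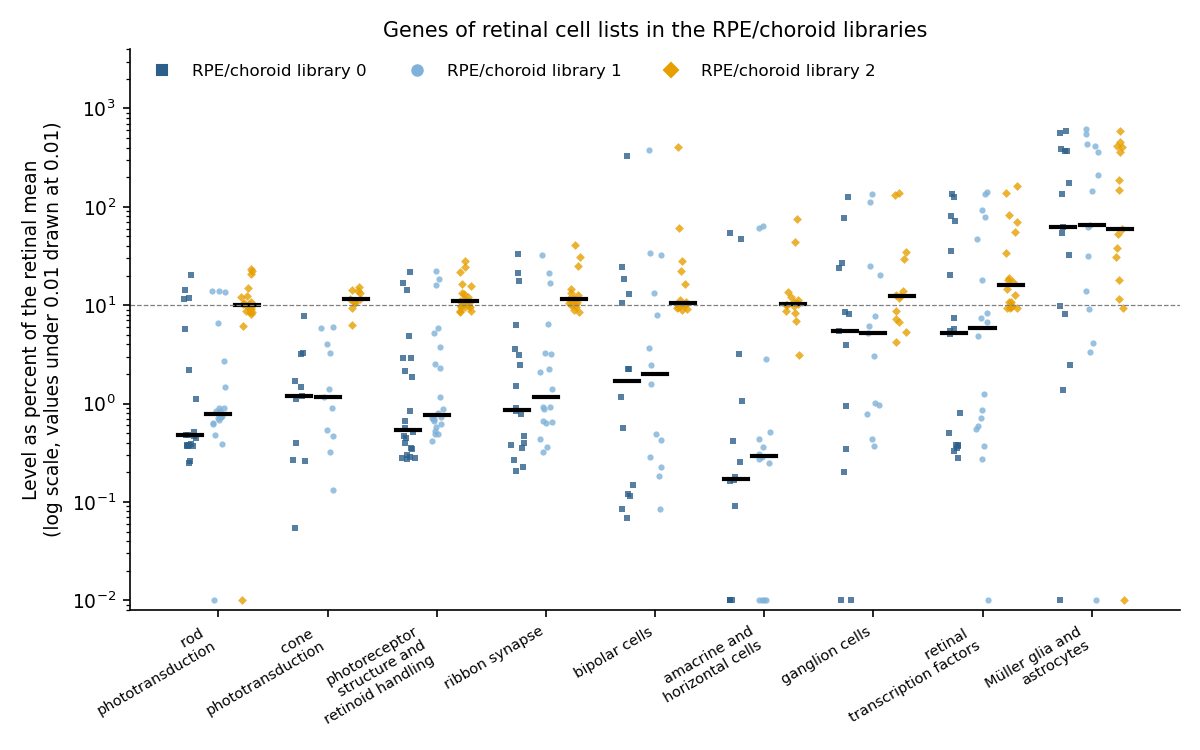
Level of each member of 9 retinal gene lists in the 3 wild-type RPE/choroid libraries, as a percent of its mean in wild-type retina (log scale; values under 0.01 are drawn at 0.01), with black bars for list medians and a dashed line at 10%. In library 2 (orange) the neuronal lists gather near the line, with medians from 9.99% to 12.3% outside the transcription factors, while most points of libraries 0 and 1 lie below it.

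Over the 1454 RPE/choroid-restricted genes, the median level in library 2 was 84.8% of the mean of libraries 0 and 1. It was 95.6% for visual cycle genes, 96.7% for pigment genes and 99.7% for RPE identity genes. In the retinal libraries the median pigment gene stood at 0.579%, 0.422% and 0.554% of its RPE/choroid level and the median visual cycle gene at 1.82%, 1.30% and 1.02%. Other lists were lower in library 2, with medians of 80.8% for ribosomal proteins, 80.6% for complement, 77.3% for mast cells, 71.0% for erythroid genes, 63.9% for surface epithelium and 47.0% for lens.

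The visual cycle marked the RPE side. Rpe65, the isomerase that remakes the cis form of retinoid, had 3.30, 3.00 and 3.44 FPKM in retina and 1205, 1225 and 1001 in RPE/choroid, 352-fold more (log2 -8.46, SE 0.138, edgeR adjusted p = 2.80e-08). The retinoid-binding opsin Rgr was 315-fold higher (5.62, 4.72 and 5.95 against 1774, 1756 and 1609 FPKM). The retinol carrier transthyretin (Ttr) was among the strongest messages of the layer at 4192, 4375 and 3951 FPKM. The dehydrogenase Rdh5 was 131-fold higher and Rdh10 13.5-fold, whereas Rdh11, which photoreceptors also use, was 1.38-fold higher in retina (log2 0.47, SE 0.0610, edgeR adjusted p = 0.000214). Of 11 genes, 10 were called higher in RPE/choroid, 7 were restricted and the median was log2 -6.15. Without library 2 the median was -6.12.

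Among 26 genes of RPE identity and transport, 24 were called higher in RPE/choroid and 15 were restricted (median log2 -4.19). The potassium channel Kcnj13 had 1.16, 1.12 and 1.19 FPKM in retina and 281, 258 and 250.2 in RPE/choroid (log2 -7.83, SE 0.0948, edgeR adjusted p = 2.03e-08). Serpinf1, which encodes the secreted factor PEDF, was 182-fold higher, and the lactate carrier Slc16a8 111-fold. The related carrier Slc16a3 was the 1 gene higher in retina (20.7, 23.9 and 20.6 against 11.04, 10.7 and 10.9 FPKM; 2.00-fold). Otx2, the homeodomain factor shared by photoreceptors, bipolar cells and RPE, was the 1 not called: it stood at 74.0, 73.9 and 80.2 FPKM in retina and at 74.1, 86.2 and 93.3 in RPE/choroid (log2 -0.15, SE 0.0935, edgeR adjusted p = 0.163). Mitf, the pigment cell factor, had 2.28, 2.90 and 2.00 FPKM in retina and 51.8, 58.7 and 72.3 in RPE/choroid (log2 -4.67, SE 0.196, edgeR adjusted p = 1.40e-06).

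Melanosome and pigment genes followed. Tyrp1, of the melanin pathway, had 1.80, 0.872 and 2.30 FPKM in retina and 1319, 1253 and 1163 in RPE/choroid, 754-fold more (log2 -9.56, SE 0.462, edgeR adjusted p = 1.14e-05). The tautomerase Dct reached 2427, 2508 and 2249 FPKM and the melanosome fibril protein Pmel 1636, 1630.2 and 1615 in RPE/choroid, 335-fold and 340.5-fold above retina. Tyrosinase (Tyr), the first enzyme of melanin synthesis, was lower at 192, 197 and 199 FPKM but 306-fold above retina. Of 16 genes, 14 were called higher in RPE/choroid and 12 were restricted (median log2 -7.76). Mc1r, the melanocortin receptor, was higher in retina at low levels (2.80, 2.45 and 2.95 against 0.787, 1.11 and 1.41 FPKM), and Hps4, of an organelle-trafficking complex, was not called (log2 0.10, SE 0.0875, edgeR adjusted p = 0.306). Both RPE cells and choroidal melanocytes make these messages, and the samples do not separate them. Genes of melanocytes and neural crest, which are not RPE genes, were also present: Sox10 had 23.1, 21.9 and 24.4 FPKM in RPE/choroid against 0.138, 0.0795 and 0.249 in retina, and all 10 members tested were higher in RPE/choroid (median log2 -5.12).

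MITF and related factors bind the M-box, whose core CATGTG, on either strand, was in 7 of 11 pigment gene windows (63.6%), against 1026 of 12151 windows of tested genes (8.44%), 126 of 1042 of RPE/choroid-restricted genes (12.1%) and 40 of 404 of retina-restricted genes (9.90%). Visual cycle genes held it in 3 of 8 windows and rod genes in 3 of 13. As 11 of the 16 listed genes had a window, this comparison of shares is void as well. The 150 bases before the start of Tyr, Tyrp1 and Dct are shown for the melanin pathway and those of Rpe65 for the visual cycle, with matches to the M-box core and to the CRX core in capitals (build GRCm38.p6, RefSeq).
Tyr, chr7:87493513-87493662, minus strand: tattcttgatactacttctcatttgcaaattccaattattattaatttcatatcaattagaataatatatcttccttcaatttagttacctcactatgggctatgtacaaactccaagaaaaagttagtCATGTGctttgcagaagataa
Tyrp1, chr4:80834063-80834212, plus strand: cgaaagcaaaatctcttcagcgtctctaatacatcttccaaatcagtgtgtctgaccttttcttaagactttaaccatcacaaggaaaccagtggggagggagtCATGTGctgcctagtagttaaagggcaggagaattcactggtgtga
Dct, chr14:118052247-118052396, minus strand: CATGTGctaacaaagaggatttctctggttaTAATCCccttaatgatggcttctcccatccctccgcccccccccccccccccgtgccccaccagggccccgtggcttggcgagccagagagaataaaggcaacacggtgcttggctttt
Rpe65, chr3:159599031-159599180, plus strand: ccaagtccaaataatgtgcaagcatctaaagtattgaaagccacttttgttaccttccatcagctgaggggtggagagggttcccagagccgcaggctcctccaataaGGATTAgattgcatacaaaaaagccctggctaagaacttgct

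The M-box core began 21 bases before the Tyr start and 46 before the Tyrp1 start, and Tyrp1 also held a CRX core 4 bases after its start, outside the stretch shown. Dct held it 150 and 232 bases before its start, the second outside the stretch shown, and a CRX core 119 bases before. Rpe65 held a CRX core 42 bases before its start and an M-box core 239 before, outside the stretch. So the CRX core is found near the start of a gene 352-fold higher in RPE/choroid as well as near rod genes. Crx itself stood at 1.66 and 2.75 FPKM in RPE/choroid libraries 0 and 1, and Otx2, whose homeodomain is closely related, at 74.1 and 86.2. Whether either factor binds or acts at these stretches was not tested.

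Genes for engulfing and degrading outer segments were mostly higher in RPE/choroid but by less. Of 14 phagocytosis genes, 10 were called higher there and 3 higher in retina (median log2 -2.09). The receptor kinase Mertk had 3.26, 2.81 and 3.92 FPKM in retina and 13.9, 15.05 and 15.1 in RPE/choroid (log2 -2.15, SE 0.122, edgeR adjusted p = 2.95e-06). Its ligand Gas6 was 1.97-fold and the integrin subunit Itgb5 4.12-fold higher in RPE/choroid. The bridging ligand Mfge8 was 2.39-fold higher in retina (138, 138 and 143 against 51.7, 62.9 and 60.6 FPKM), as were Tulp1 and Tub, tubby proteins that are also photoreceptor or neuronal genes. Ptk2, a kinase downstream of the integrin, was not called (log2 0.17, SE 0.0717, edgeR adjusted p = 0.0564). Of 17 lysosomal genes, 16 were called higher in RPE/choroid (median log2 -2.31). Cathepsin D (Ctsd) had 169, 170.5 and 198 FPKM in retina and 1178, 1249 and 1185 in RPE/choroid, and the exception was the cholesterol transporter Npc1 (1.65-fold higher in retina).

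Matrix and stroma genes were strongly represented in RPE/choroid. How much of this stems from the choroid and how much from tissue attached to the dissected layer was not tested. All 18 fibroblast genes were higher in RPE/choroid and 15 were restricted (median log2 -7.65). Decorin (Dcn), a small matrix proteoglycan, had 0.334, 0.268 and 1.30 FPKM in retina and 2235, 1962 and 1636 in RPE/choroid (log2 -11.62, SE 0.827, edgeR adjusted p = 0.000112). The collagen Col1a1 stood at 929.8, 732 and 973 FPKM in RPE/choroid against 0.240, 0.413 and 0.701. All 18 genes of Bruch membrane, the sheet between RPE and choroid, were also higher (median log2 -4.47, 10 restricted). Timp3, a protease inhibitor held in that sheet, was 36.5-fold higher (17.2, 17.3 and 18.9 against 658, 697 and 594 FPKM). The serine protease Htra1 was 2.04-fold higher.

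Vessel genes were higher in RPE/choroid with exceptions. Of 18 endothelial genes 16 were called higher there (median log2 -3.35). Plvap, of the fenestrated endothelium that the choriocapillaris has, had 2.08, 3.32 and 3.56 FPKM in retina and 37.3, 40.03 and 39.3 in RPE/choroid (log2 -3.71, SE 0.189, edgeR adjusted p = 2.49e-06). The VEGF receptor Kdr was higher in retina, where neurons and glia can express it (42.4, 41.3 and 32.7 against 14.7, 14.4 and 18.7 FPKM; log2 1.28, SE 0.141, edgeR adjusted p = 0.000104). The other VEGF receptor, Flt1, overlapped between the tissues (8.11 to 9.03 against 7.57 to 8.71 FPKM; log2 0.11, SE 0.0809, edgeR adjusted p = 0.241). The ligand Vegfa was higher in RPE/choroid by a small margin (26.5, 30.0 and 27.9 against 34.6, 36.4 and 43.3 FPKM; 1.35-fold), and Angpt1 27.2-fold. For 14 genes of the vessel barrier, 12 were called higher in RPE/choroid but the median was log2 -1.36. The glucose transporter Slc2a1, which RPE also carries, was 4.28-fold higher there. The amino acid transporter Slc38a5 was higher in retina on 39 fragments against 8. Of 13 pericyte and smooth muscle genes 12 were called higher in RPE/choroid, among them the actin Acta2 (155-fold).

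Most immune genes were higher in RPE/choroid. Of 16 microglia and macrophage genes 14 were called higher in RPE/choroid (median log2 -3.72). The receptor Csf1r had 2.86, 3.23 and 3.31 FPKM in retina and 43.7, 47.3 and 44.3 in RPE/choroid. P2ry12, a marker of resident microglia, was not called (2.22, 2.09 and 2.67 against 1.95, 1.77 and 1.79 FPKM; log2 0.34, SE 0.158, edgeR adjusted p = 0.0772), and Lyve1 was 1.24-fold higher in retina. Mast cell proteases were the sharpest case: Mcpt4 had no fragment in the 3 retinal libraries and 18.6, 17.3 and 16.5 FPKM in RPE/choroid, and Cpa3 none against 17.8, 17.4 and 13.9. Of 7 mast cell genes 6 had no retinal fragment, and with these at the bound set by 3 counts over the group, the list median was log2 -7.41. The remaining one, the histamine enzyme Hdc, was 2.40-fold higher in retina. Of 14 complement genes 12 were called higher in RPE/choroid (median log2 -4.74). The membrane inhibitor Cd59a was not called, with RPE/choroid library 0 (18.4 FPKM) below library 1 and 2 (36.1 and 39.1) and retina at 33.3 to 34.3.

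Messages typical of tissues other than RPE and choroid were found in the RPE/choroid libraries too. All 15 skeletal muscle genes were restricted to RPE/choroid (median log2 -10.98). The alpha-actin Acta1 had 1.18, 1.25 and 1.53 FPKM in retina and 1010.2, 907 and 948 in RPE/choroid, near the level of Rpe65. The fast myosin light chain Myl1 stood at 1354, 1176 and 1163 FPKM. All 12 genes of surface epithelium and ciliary body were also higher (11 restricted, median log2 -10.94). The keratin Krt15 had 0.182, 0.125 and 1.18 FPKM in retina and 1609, 1554 and 859 in RPE/choroid, with library 2 the lowest. The corneal aldehyde dehydrogenase Aldh3a1 had 770.3, 809.9 and 628 FPKM there. Summed over their lists, muscle genes gave 7768 to 8579.8 FPKM in the RPE/choroid libraries, surface epithelial genes 2970.5 to 4719, visual cycle genes 8209 to 9143 and pigment genes 6364 to 6770. How much of each stems from tissue attached to the dissected layer was not tested. Among the RPE/choroid-restricted genes ranked for naming, the prostaglandin synthase Ptgds led with 7087, 8649 and 6830.3 FPKM. Ttr and the glutathione transferase Gsto1 (3414, 2832 and 1635) followed. That ranking left out sex-linked genes, small RNAs and provisional symbols such as Rik, Gm and LOC.

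Lens crystallins varied between libraries of both tissues. Cryaa, the alpha-A crystallin, had 130.5, 26.8 and 6.89 FPKM in retinal libraries 0, 1 and 2 and 400.4, 221 and 142 in RPE/choroid. The difference was not called (log2 -2.21, SE 1.19, edgeR adjusted p = 0.146) although the groups did not overlap. Of 15 lens genes 4 were called, all higher in RPE/choroid. Without retinal library 0, which had the highest crystallin level of the retinal libraries, 14 were called, and without any other library 2 or 3. The list's median was log2 -2.38, and the summed level ranged from 43.0 to 706 FPKM in retina.

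**Figure D4:**
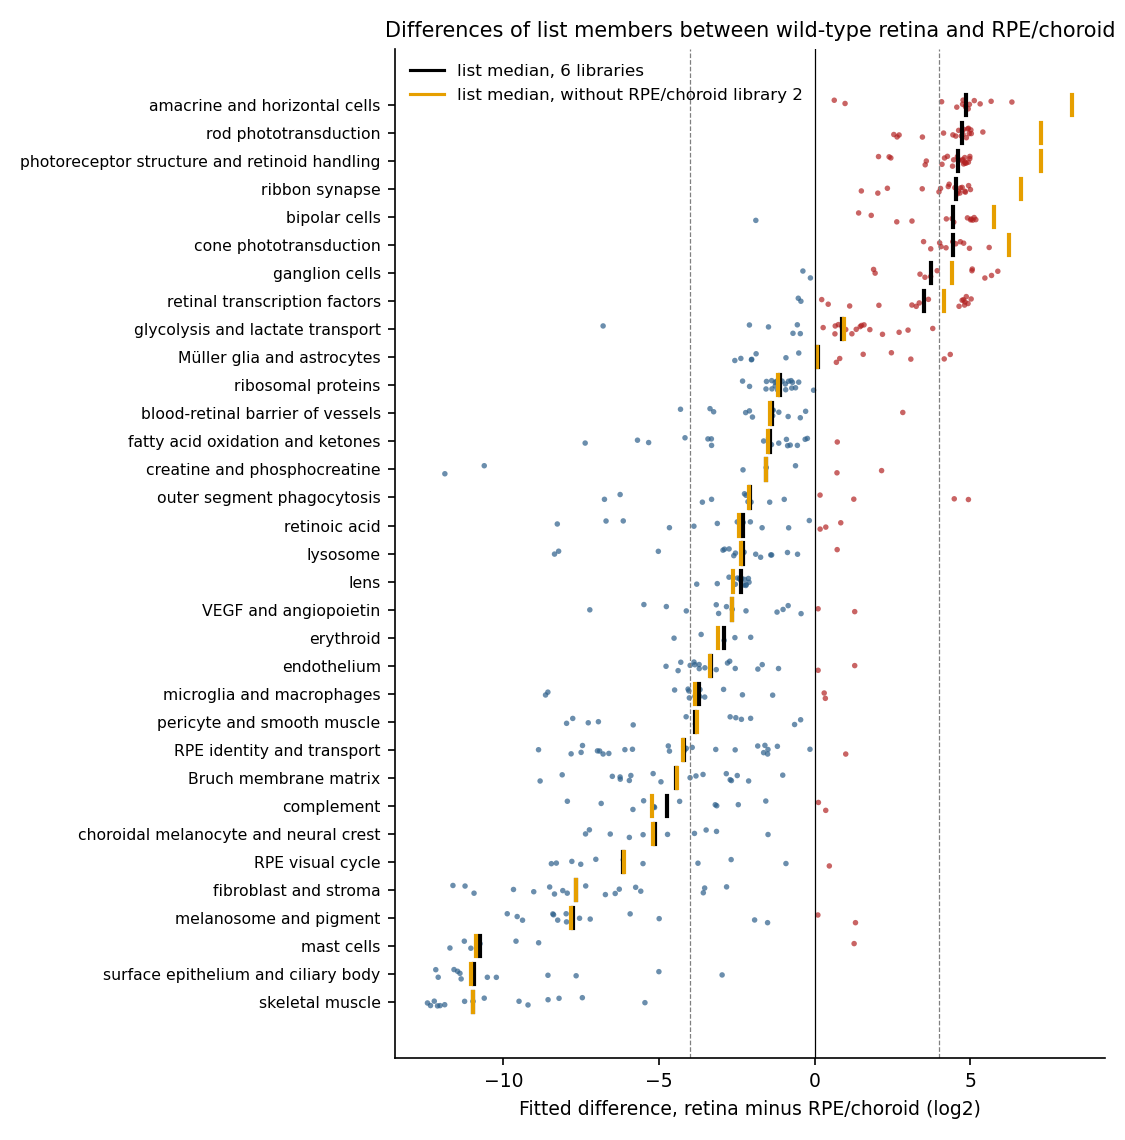
Fitted log2 difference (retina minus RPE/choroid) of each tested member of 33 gene lists, red where higher in retina and blue where higher in RPE/choroid, with list medians over 6 libraries (black) and without RPE/choroid library 2 (orange) and dashed lines at log2 4 and -4. With all libraries no member of the 8 neuronal lists passes log2 6.33. Their medians move to between 4.16 and 8.28 without library 2, while the medians of the lists higher in RPE/choroid move less. Members past log2 -10 are found in the muscle, surface epithelium, mast cell, stroma and creatine lists. The visual cycle, RPE identity and pigment lists have none. Values are drawn without a bound, and the mast cell members past log2 -10 had no retinal fragment. The mast cell median is drawn at log2 -10.75.

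Energy metabolism split by pathway. Of 23 genes of glycolysis and lactate transport, 17 were called higher in retina and 6 higher in RPE/choroid (median log2 0.88). Lactate dehydrogenase A (Ldha) had 661, 665 and 662 FPKM in retina and 258, 255 and 276 in RPE/choroid (log2 1.33, SE 0.0649, edgeR adjusted p = 1.33e-06). Pyruvate kinase (Pkm2) was 2.83-fold and phosphoglycerate mutase (Pgam1) 4.52-fold higher in retina. The genes higher in RPE/choroid included the glucose importer Slc2a1, the lactate carrier Slc16a8 and basigin (Bsg), the partner of such carriers (324, 316 and 372 against 874, 959 and 1001 FPKM). Of 18 genes of fatty acid oxidation and ketones, 17 were called higher in RPE/choroid (median log2 -1.44). Hadhb, of the mitochondrial trifunctional protein, had 40.8, 42.5 and 43.4 FPKM in retina and 119, 126 and 109.7 in RPE/choroid. Muscle genes move with this list and their part in it was not tested.

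Some genes were used in both tissues but through different transcripts. Each transcript's share of its gene's summed FPKM was compared without a test, for genes with at least 5 FPKM in every library. Of 4610 transcripts of 1750 genes, 212 (4.60%) differed by at least 50 percentage points with no overlap between the groups. They belong to 123 genes, and the total level of 72 of these, by fragment counts without a correction for transcript length, differed by under 2-fold.

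Trpm1 had the largest difference. In retina it encodes the channel that opens at the end of the mGluR6 cascade of ON bipolar cells, and in pigment cells it is transcribed as melastatin. At gene level it was higher in RPE/choroid, with 101, 95.9 and 86.3 FPKM in retina and 309, 356 and 385 in RPE/choroid (log2 -1.89, SE 0.105, edgeR adjusted p = 2.63e-06). The transcripts separated almost fully. The long one (NM_001039104, 5695 bases) made up 95.55%, 97.3% and 96.0% of the gene in retina and 1.59%, 1.66% and 2.36% in RPE/choroid. The short one (NM_018752, 2928 bases) made up 98.4%, 98.3% and 97.6% in RPE/choroid. As deposited FPKM, which the authors scaled within each tissue, the long form stood at 54.3, 56.0 and 50.7 in retina and the short form at 348, 392 and 401 in RPE/choroid. The long form in RPE/choroid, at 5.63, 6.60 and 9.71, was highest in library 2. Joint FPKM used the same gene length for both tissues, although the retinal form is the longer (5695 against 2928 bases). The gene-level retinal FPKM above are therefore overstated relative to RPE/choroid. The log2 of -1.89, fitted to fragment counts without a correction for length, understates the difference in transcript level.

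The starts of the 2 forms lie 31624 bases apart. In build GRCm38 the long form runs on chromosome 7 from 64153835 to 64269775 and the short form from 64185459 to 64224836, both on the plus strand (GENCODE, matched through RefSeq names). The 150 bases before each start are shown because 1 precedes the retinal and 1 the RPE/choroid form, with CRX and M-box cores in capitals (RefSeq, GRCm38.p6).
Trpm1 long form, chr7:64153685-64153834, plus strand: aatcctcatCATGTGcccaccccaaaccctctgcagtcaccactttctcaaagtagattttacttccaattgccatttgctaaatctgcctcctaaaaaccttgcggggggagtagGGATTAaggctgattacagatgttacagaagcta
Trpm1 short form, chr7:64185309-64185458, plus strand: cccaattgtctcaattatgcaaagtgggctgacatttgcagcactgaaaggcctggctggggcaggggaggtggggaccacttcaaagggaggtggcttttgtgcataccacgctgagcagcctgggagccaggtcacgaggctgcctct

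The stretch before the long form held a CRX core 34 bases before the start and an M-box core 141 before. Before the short form neither was found within the window, and an M-box core began 36 bases after the start. No match says only that these letters are not in the window.

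Other genes had a different main transcript in each tissue, at the same or another total level. Odz3, a teneurin cell adhesion protein, was 92.5%, 94.6% and 97.1% one form (NM_011857) in retina and 100%, 96.4% and 93.7% the other (NM_001145937) in RPE/choroid, with lengths of 10978 and 10930 bases and a gene-level difference of log2 -0.23. Wdr35, of cilium transport, was 90.7%, 95.5% and 96.8% NM_172470 in retina and 96.4%, 98.8% and 92.0% NM_001159527 in RPE/choroid, with gene totals not called apart (log2 -0.10, SE 0.0864, edgeR adjusted p = 0.296). Bin1, a membrane-bending adaptor that was higher in retina as a gene (log2 1.35), was 98.6%, 97.3% and 96.2% NM_009668 in retina, and 97.985%, 98.3% and 79.8% NM_001083334 in RPE/choroid. There library 2 had 20.2% of the retinal form, where libraries 0 and 1 had 2.02% and 1.75%. Transcripts that differ by few bases share most of their fragments, so such shares rest on few informative fragments, and the tables give no error for them.

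**Figure D5:**
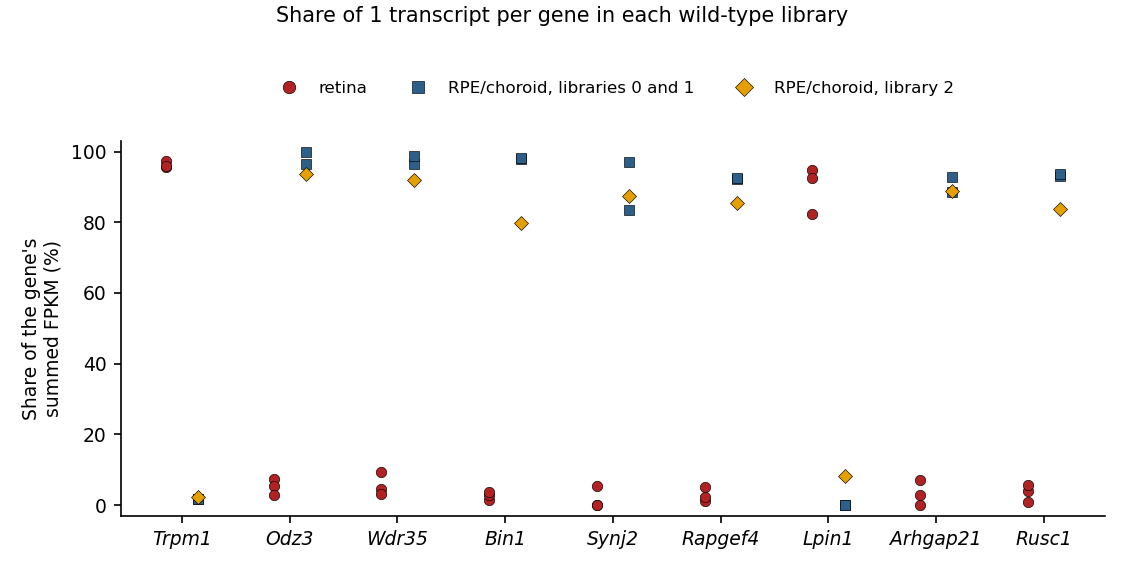
Share of 1 transcript in the summed FPKM of its gene (percent) in each wild-type library, for 9 genes among those with the largest differences: retina in red, RPE/choroid libraries 0 and 1 in blue and library 2 in orange. The transcript drawn is the retinal form for Trpm1 and Lpin1 and the RPE/choroid form for the others; for Bin1 library 2 lies at 79.8%, below libraries 0 and 1.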

How the data were processed

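Per the labels' protocols, total RNA was depleted of ribosomal RNA, made into stranded paired-end libraries and read on an Illumina HiSeq instrument. Per the submitters' processing notes, the authors used TopHat, Bowtie2 and Cufflinks with mm9; whether counting used the strand is not given in the sources used here, so overlapping and antisense genes are uncertain. The deposited gene tables hold expected counts of fragments (98.47% whole numbers within a tolerance of 1e-06; the rest were rounded) and FPKM, per the file headers; transcript tables hold the authors' FPKM and lengths. The authors' FPKM were scaled within each tissue, so joint FPKM were computed here from TMM-scaled counts and 1 length per gene, the transcript lengths weighted by mean wild-type FPKM. The tables hold 22558 genes; 25 names had been turned into dates and 4 estimates are marked as failed and are kept as listed.

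Counts of both tissues were joined by gene and tested over the 6 libraries with edgeR 4.0.16 in R 4.3.3 (filterByExpr, TMM, robust quasi-likelihood, Benjamini-Hochberg over 15627 genes; biological coefficient of variation 0.178), after the script had been tested on simulated data. Library numbers of the tables could not be linked to those of the labels. The members, the 33 gene lists, the motifs and the rules were chosen with earlier results of these data known. Named genes are the 15 highest restricted genes per tissue, up to 6 called list members on the majority side, up to 3 on the other side, up to 2 not called, all listed transcription factors and the 10 transcripts with the largest share difference. The ranking of restricted genes left out sex-linked genes, small RNAs and provisional symbols such as Rik, Gm and LOC. Abca4, Prom1, Cdhr1, Gucy2e, Mertk and Mitf are named outside this rule, after their values were seen, as are genes given by a percentage or by name alone. Genes at 0 in a tissue were set to a bound of 3 counts over the group only for the list medians given at that bound. Fitted differences, counts of restricted genes and figures carry no such bound. Alternatives were DESeq2 1.42.0, RLE and upper-quartile scaling, no filter, all 18 libraries, limma 3.58.1 on log2(FPKM + 1) and log2(FPKM + 0.1), glmTreat against 2-fold, other fold and share thresholds, a replicate block and leaving out each library. Some list members are counted in their lists but not reported here by name.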

Additional observations from a re-analysis of the deposited data

How the results depend on the processing

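The count of called genes stayed within 1.5 times of 13126 except with glmTreat against 2-fold (6979). The share of called genes higher in retina was 48.99%, against 48.07% with DESeq2, 51.33% with upper-quartile scaling, 47.91% without a filter and 48.11% to 48.77% when a library was left out. Retina-restricted genes numbered 566, but 981 at 8-fold, 117 at 32-fold, 194 with limma on log2(FPKM + 1) and 300 to 782 when a library was left out (355 without RPE/choroid library 0, 300 without library 1, 782 without library 2). RPE/choroid-restricted genes numbered 1454, but 2071 at 8-fold, 1003 at 32-fold and 467 with limma on log2(FPKM + 1), a scale that understates low genes. With limma on log2(FPKM + 0.1) they numbered 1193, and retina-restricted genes 506. Transcripts past the share threshold numbered 212, and 540 at 30 points or 331 at 1 FPKM. Upper-quartile scaling moved the median difference of all genes by 0.073 (log2). Directions that changed were of genes not called there: Opn4 was 0.021 and 0.036 with limma and 0.035 without RPE/choroid library 2 (-0.335 at the other end, without library 0), Rps27 (log2 -0.036, not called) 0.036 with upper-quartile scaling, 0.126 and 0.144 with limma, 0.135 without retinal library 0 (-0.146 without library 1) and 0.078 without RPE/choroid library 0, Synj2 0.033 and 0.037 with limma, and Cd59a -0.156 without RPE/choroid library 0 and 0.288 without library 2. Of 258 named genes, 224 to 229 kept their direction and side of the threshold without a retinal library, 223 without RPE/choroid library 0 and 229 without library 1, and 248 without library 2. With the table number as a replicate block, 12786 genes were called, 601 retina-restricted and 1452 RPE/choroid-restricted. Same-numbered libraries had r of 0.069, -0.013 and 0.036 in their deviations, which with 3 libraries per tissue cannot show or exclude a pairing. The libraries numbered 2 are of different sex and so are not of 1 animal. Whether numbers 0 and 1 pair the tissues is not known.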

Other observations

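Several lists outside the eye's main functions also differed. Of 20 ribosomal protein genes 19 were called higher in RPE/choroid, with a median of log2 -1.12; Rpl10 had 195, 184 and 208 FPKM in retina and 896, 929 and 679 in RPE/choroid (log2 -2.09, SE 0.130, edgeR adjusted p = 4.45e-06). Reads of such genes can be shared with pseudogenes, so single values are uncertain. Creatine kinases split by isoform: the brain form Ckb was 4.43-fold higher in retina (654, 709.7 and 742 against 130.3, 132 and 213 FPKM), while the muscle form Ckm had 777, 659 and 705 FPKM in RPE/choroid against 0.265, 0.305 and 0.835. The muscle list moves with the latter.

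Retinoic acid genes were mostly higher in RPE/choroid, 12 of 15 called (median log2 -2.30). The synthesising enzyme Aldh1a2 was 308-fold higher (0.111, 0.0635 and 0.0746 against 30.4, 25.4 and 25.3 FPKM), while Aldh1a1 was 3.23-fold higher, and the retinol receptor Stra6 71.0-fold. Haemoglobin genes varied within both tissues: Hba-a2 had 15.9, 0 and 0 FPKM in retina and 218, 129.6 and 44.6 in RPE/choroid, and Hba-a1 0, 22.1 and 18.1 against 0.0992, 40.5 and 124. These near-identical copies move in opposite directions across libraries, so fragments assigned to either are uncertain.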
